A study of Mus musculus with 2 samples.

Results

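The Gnas locus is an imprinted stretch of mouse chromosome 2 from which several promoters transcribe overlapping RNAs. It was taken here as the whole 250 bp bins of the 70 kb from 174105001 to 174175000 (mm9), which are 280 of the 10130200 bins of the genome that were counted. The bins were chosen by position alone, and the 100 kb on each side, 400 bins each, served for comparison. The libraries were 1 of chromatin immunoprecipitated with an antibody to KDM2A (ChIP) and 1 of input DNA, for which no antibody was used. Both came from V6.5 embryonic stem cells (ESCs), a C57BL/6 × 129/sv hybrid line whose strain field reads C57BL/6, and no treatment was applied. The cells were grown on inactivated fibroblast feeders and then passaged without feeders on gelatin before use, and for the KDM2A ChIP they were fixed with EGS followed by formaldehyde. Both libraries were amplified by 18 PCR cycles. With 1 library per group there was no replicate. Every test below therefore compared these libraries and not the conditions, and intervals cover counting error only. PCR copies are not independent molecules, so the intervals can be too narrow even for that error. The KDM2A library held 10042076 tags and the input library 9760426, so that a bin held on average 0.991 KDM2A tags and 0.963 input tags. RNA was not measured in these libraries, and the cell type was not checked against marker genes.

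KDM2A is a histone demethylase that removes dimethylation from lysine 36 of histone H3. It reaches CpG islands through a zinc finger CxxC domain that binds CpG dinucleotides lacking DNA methylation. At the Gnas locus, DNA methylation is laid down on 1 parental allele at most of the promoters. The Nesp promoter drives the maternal transcript of the neuroendocrine secretory protein NESP55 and is methylated on the paternal allele. The promoters of Nespas, a noncoding antisense RNA, and of Gnasxl, which encodes the extra large G protein subunit, are methylated on the maternal allele, as is that of the noncoding exon 1A transcript. The Gnas exon 1 promoter, which drives the stimulatory G protein alpha subunit, lies in a CpG island that is free of methylation on both alleles. These are background facts. DNA methylation was not measured in these libraries, and tags were counted over both alleles together.

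The promoter sequences show how densely CpG dinucleotides, methylated or not, are packed at the starts of Gnas. RefSeq (GRCm38.p6) gives 4 starts of Gnas, all on the plus strand of chromosome 2, each with a window of 250 bases before and 50 bases after the start. The table does not name their transcripts. By order the first start is taken as Nesp and the last as Gnas exon 1. Between them lies a pair of starts 19 bp apart, 43.4 kb right of the first start and 2.26 kb left of the last. Exon 1A is known to lie just upstream of Gnas exon 1 and Gnasxl farther upstream. The pair thus lies on the side of exon 1A, close to the last start, but it is left unnamed here. Nespas had no window, and no window was tied to Gnasxl. Capitals mark each CpG, read on the plus strand, which is the same on the minus strand. The windows carry the coordinates of another build than the tags and were not placed among them.
First start (Nesp): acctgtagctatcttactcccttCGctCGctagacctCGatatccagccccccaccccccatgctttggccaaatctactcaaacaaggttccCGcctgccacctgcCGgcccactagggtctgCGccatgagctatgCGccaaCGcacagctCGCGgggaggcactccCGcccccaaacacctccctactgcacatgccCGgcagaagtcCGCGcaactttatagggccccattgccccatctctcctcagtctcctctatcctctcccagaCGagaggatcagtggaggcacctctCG
Left start of the middle pair: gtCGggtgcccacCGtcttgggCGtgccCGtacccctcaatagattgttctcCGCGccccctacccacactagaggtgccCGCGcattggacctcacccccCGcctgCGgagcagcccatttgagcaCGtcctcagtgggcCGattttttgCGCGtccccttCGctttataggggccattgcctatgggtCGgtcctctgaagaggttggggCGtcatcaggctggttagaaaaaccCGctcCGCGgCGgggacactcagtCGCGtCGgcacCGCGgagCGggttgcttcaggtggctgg
Last start (Gnas exon 1): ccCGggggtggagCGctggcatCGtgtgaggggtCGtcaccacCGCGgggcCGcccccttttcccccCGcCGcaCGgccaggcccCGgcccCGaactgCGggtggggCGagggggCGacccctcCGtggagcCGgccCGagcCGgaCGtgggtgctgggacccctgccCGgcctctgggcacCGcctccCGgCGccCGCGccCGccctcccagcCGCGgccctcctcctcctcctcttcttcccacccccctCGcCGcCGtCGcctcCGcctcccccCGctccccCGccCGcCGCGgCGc

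The window of the first start held 16 CpG dinucleotides in 300 bases at a GC content of 61.0%, and 33.0% of 32807 mouse promoter windows held at least as many. The left start of the pair held 27 and the right start 28, with 15.5% and 14.2% of windows as dense. The window of the last start held 40 at a GC content of 81.7%, a count reached by 3.92% of windows. The median window held 7. The ratio of observed to expected CpG, which corrects for base content, was 0.650 at the first start, 0.871 and 0.903 at the pair and 0.839 at the last start. The CpG count was thus lowest in the first window and highest in the last.

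**Figure D1:**
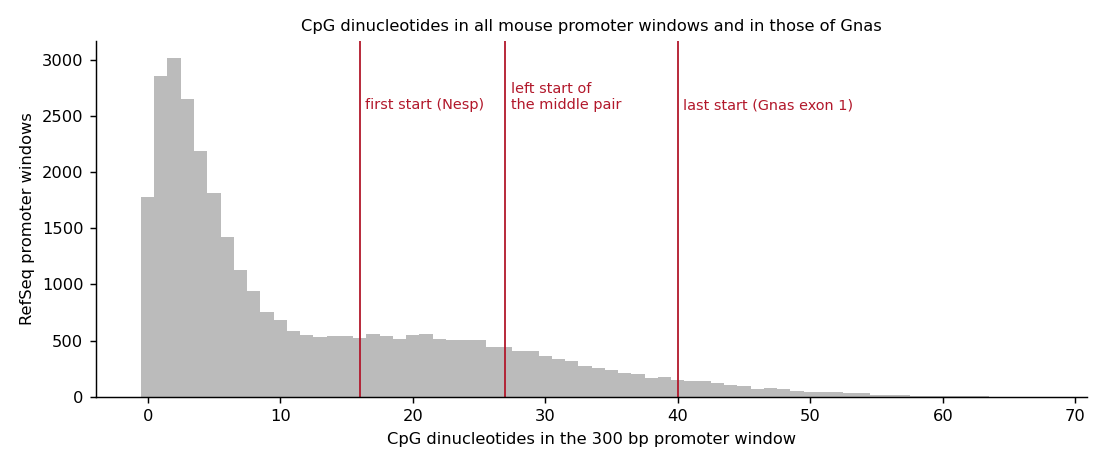
Number of CpG dinucleotides in each 300 bp RefSeq promoter window (grey bars, count of windows on the vertical axis), with vertical lines at the first start, the left start of the middle pair and the last start of Gnas. All 3 lie above the median of 7, at 16, 27 and 40.

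KDM2A tags in the locus were gathered in a few clusters of at most 3.75 kb, and the longest stretch between them was close to input. The 280 bins held 1075 KDM2A tags and 343 input tags, a mean of 3.84 against 1.23 per bin and a ratio of 3.05 after input was scaled by total tags. KDM2A tags made up 75.8% of the tags of both libraries in the locus (95% Wilson interval 73.5% to 78.0%), compared with 49.0% in the left flank (46.2% to 51.8%), 54.5% in the right flank (51.6% to 57.3%) and 50.7% in the genome. A bin was called when its KDM2A tags exceeded what was expected, which was the genome mean or the scaled input of the 5 kb around it, whichever was larger, by a one-sided exact Poisson test with Benjamini-Hochberg adjustment over all bins and a limit of 0.01. In the locus 42 bins (15.0%) were called, in the left flank 1 (0.25%) and in the right flank 6 (1.5%), and the background over the genome was 1.05%. When each position and strand was counted once, 41 bins of the locus (14.6%) were called against a background of 0.97%. With the libraries exchanged, so that input was tested against KDM2A, 0 bins of the locus and 1 bin of each flank were called. The background of that comparison was 0.144%. At an unadjusted p under 0.05 (exact Poisson test) the exchanged comparison had 12 bins in the locus (4.29%), 34 in the left flank (8.5%) and 32 in the right flank (8%), and the background over the genome was 4.48%.

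Called bins with at most 500 bp between them were joined into clusters, and the tags in the highest bin of a cluster are its height. The locus held 6 clusters. They covered 16.8% of its bins and held 65.4% of its KDM2A tags (95% Wilson interval 62.5% to 68.2%), but 12.5% of its input tags (9.44% to 16.5%). Clusters were called for their many KDM2A tags, so that choice raises this share and the ratios to input given below. The intervals do not allow for it, and these values are descriptions. A cluster was tied to a promoter by left to right order, because the positions of the transcripts in mm9 were not used here. Order does not fix which of the 6 clusters go with no promoter and which share one, so that part was a choice. The names below mean no more than that. From left to right these are a single bin at the left end, the Nesp cluster, a pair of clusters where Nespas and Gnasxl lie, 1 cluster over exon 1A and exon 1, and a short cluster further right.

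**Figure D2:**
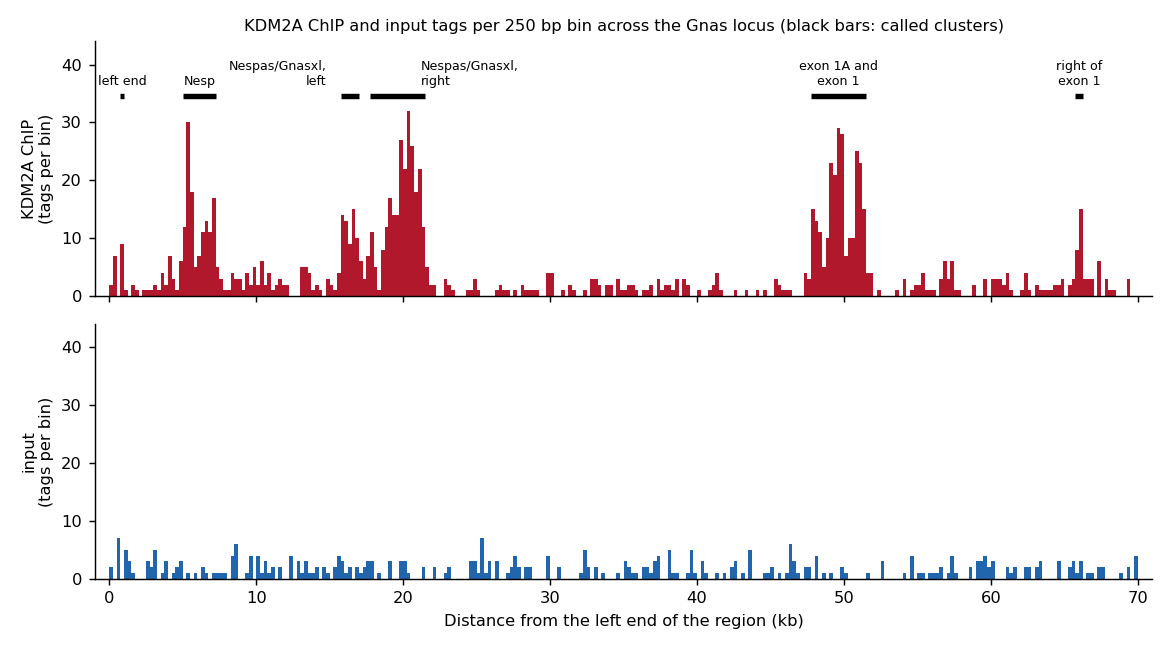
KDM2A ChIP tags (upper panel) and input tags (lower panel) in each 250 bp bin, against the distance in kb from the left end of the locus, with black bars over the 6 called clusters. KDM2A reaches 32 tags per bin and input at most 7, and both panels have the same vertical scale.

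The Nesp cluster, from 174110001 to 174112250, held 124 KDM2A tags and 6 input tags in its 9 bins. The bins held, from left to right, 12, 30, 18, 5, 7, 11, 13, 11 and 17 KDM2A tags, while no bin held more than 2 input tags. The tags formed a high left hump and a lower right one. The highest bin, with 30 tags, had an adjusted p of 3.42e-27 (exact Poisson test), and the right hump, with 17 tags in its highest bin, one of 1.1e-10. The bin of 5 tags between them and the bin of 7 tags to its right were not called (adjusted p = 0.268 and 0.0486, exact Poisson test). The summits lay 1.75 kb apart. The 3 bins left of the lowest bin held 20 KDM2A tags per bin (95% exact Poisson interval 15.3 to 25.7) and the 5 bins right of it 11.8 (8.98 to 15.2). The lowest bin was found from the same tags, so this division is a description with no test. KDM2A exceeded scaled input 20.1 times over the cluster (exact interval 8.97 to 55.8).

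In the region of Nespas and Gnasxl the KDM2A tags spread over 2 clusters with a gap of 0.75 kb between them. The left cluster, from 174120751 to 174122000, held 14, 13, 9, 15 and 10 KDM2A tags in its 5 bins, a plateau without a clear summit. It held 61 KDM2A tags and 8 input tags, a ratio of 7.41 (exact interval 3.53 to 17.9), and its lowest adjusted p was 4.17e-08 (exact Poisson test). The right cluster, from 174122751 to 174126500, was the one with the highest bin of the locus. It held 241 KDM2A tags and 16 input tags in 15 bins, a ratio of 14.6 (8.83 to 26.0). Its first 3 bins held 11, 5 and 1 KDM2A tags and the fourth held 8. From there the bins held 12, 17, 14, 14, 27, 22, 32, 26, 18, 22 and 12, so that the tags climbed toward the right side of the cluster. That bin, from 174125251 to 174125500, held 32 KDM2A tags against 1 of input, with an adjusted p of 4.27e-33 (exact Poisson test). When each position and strand was counted once, the right cluster fell into 2. The gap between the left and right clusters held 16 KDM2A tags and 6 input tags, a ratio of 2.59 (0.963 to 8.09), higher in value than in the other stretches outside clusters but with an interval that includes 1.

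The cluster over exon 1A and exon 1, from 174152751 to 174156500, held 245 KDM2A tags and 9 input tags in 15 bins, the highest ratio among the clusters with input tags, at 26.5 (exact interval 13.7 to 58.6). Its first 9 bins held 15, 13, 11, 5, 10, 23, 21, 29 and 28 KDM2A tags. The next bin, from 174155001 to 174155250, held 7 and was still called (adjusted p = 0.00771, exact Poisson test). The last 5 bins held 10, 10, 25, 23 and 15 KDM2A tags and 0 input tags. The cluster therefore had 2 main summits, of 29 tags (95% exact Poisson interval 19.4 to 41.6) on the left and 25 tags (16.2 to 36.9) on the right, 1.25 kb apart. In the order of the promoters exon 1A comes first and exon 1 second, but the summits were not tied to them. The left start of the middle pair and the last start of Gnas lie 2.26 kb apart, farther than these summits. On the left of the bin of 7 tags there were 17.2 KDM2A tags per bin (14.6 to 20.2) and on the right 16.6 (13.2 to 20.6), so that the intervals largely overlap. The lowest bin of the cluster was another one, the bin of 5 tags further left, which was not called (adjusted p = 0.309, exact Poisson test). This division was made after the values were seen and was given no test.

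**Figure D3:**
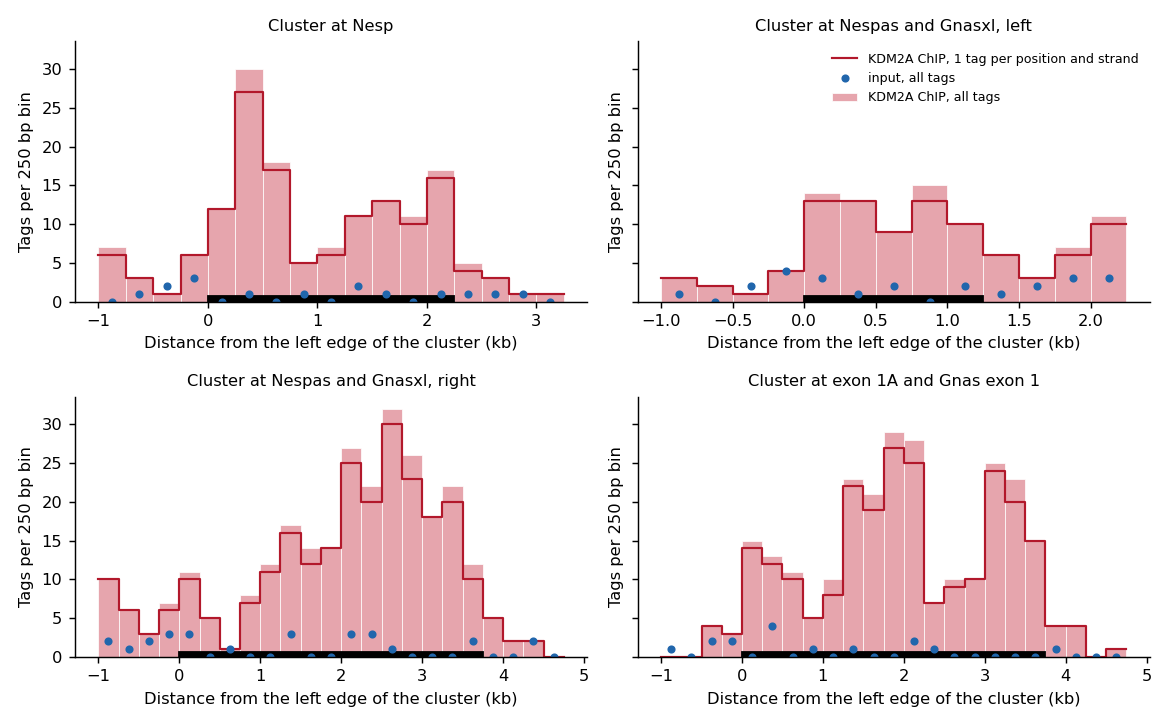
Tags per 250 bp bin in and 1 kb around the 4 main clusters, against the distance in kb from the left edge of each cluster (black bar, the called span). Bars are all KDM2A tags, the line counts each position and strand once, and points are input. The line follows the bars, with 27, 13, 30 and 27 tags in the highest bins, and input stays at the bottom.

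The 2 remaining clusters were small. The cluster right of exon 1, from 174170751 to 174171250, held 8 and 15 KDM2A tags in its 2 bins, with 4 input tags in all, a ratio of 5.59 (exact interval 1.91 to 22.2). It was called under each of the 7 other settings tried. The bin at the left end, from 174105751 to 174106000, held 9 KDM2A tags against 0 of input, with an adjusted p of 0.00771 (exact Poisson test). It was not called with 500 bp bins, with shifted bins, without movement of tags or at an adjusted p limit of 0.0001. KDM2A tags in these and the 4 larger clusters came from both strands, the plus strand giving 44.4% to 54.1% of them.

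The clusters were compared with each other because the promoters differ in their known allelic methylation. However, the clusters and their edges were set by the same tags, and exon 1A and exon 1 fell in 1 cluster. The tests therefore cannot decide whether density differs with methylation, and no conclusion on that is drawn. Density, in KDM2A tags per bin, was 13.8 at Nesp (95% exact Poisson interval 11.5 to 16.4), 12.2 (9.33 to 15.7) and 16.1 (14.1 to 18.2) in the left and right clusters at Nespas and Gnasxl, 16.3 (14.4 to 18.5) at exon 1A and exon 1, and 11.5 (7.29 to 17.3) right of exon 1. Of the 10 pairs among these 5 clusters of at least 15 tags in height, 0 differed in density at an adjusted p of 0.05 by exact binomial tests with Benjamini-Hochberg adjustment, and 1 had an unadjusted p under 0.05 (exact binomial test). For the share of KDM2A among the tags of both libraries, Fisher's exact test gave 0 pairs, with a lowest adjusted p of 0.133, and 2 pairs at an unadjusted p under 0.05. With 500 bp bins and with shifted bins, 3 of 6 pairs differed in this share. The right cluster at Nespas and Gnasxl and the cluster at exon 1A and exon 1 were the closest, at a density ratio of 0.984 (exact interval 0.820 to 1.18). The Nesp cluster had 0.844 times the density of the cluster at exon 1A and exon 1 (0.674 to 1.05). The left cluster at Nespas and Gnasxl had 0.747 times that density (0.555 to 0.992, adjusted p = 0.270, exact binomial test). These densities depend on where a cluster was taken to begin and end, and under 5 of the 7 other settings 1 to 4 pairs differed.

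In the densest 1 kb of each cluster, a span of equal width, there were 66 KDM2A tags at Nesp, 51 and 107 in the left and right clusters at Nespas and Gnasxl, 101 at exon 1A and exon 1, and 29 right of exon 1. The input tags in these spans were 4, 6, 7, 3 and 7 in the same order. The values were highest in the 2 widest clusters. The spans were picked after the data were seen, for the tags they hold. A wider cluster offers more spans to pick from, and the span right of exon 1 reaches beyond its 0.5 kb cluster, so these totals are descriptions with no test.

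**Figure D4:**
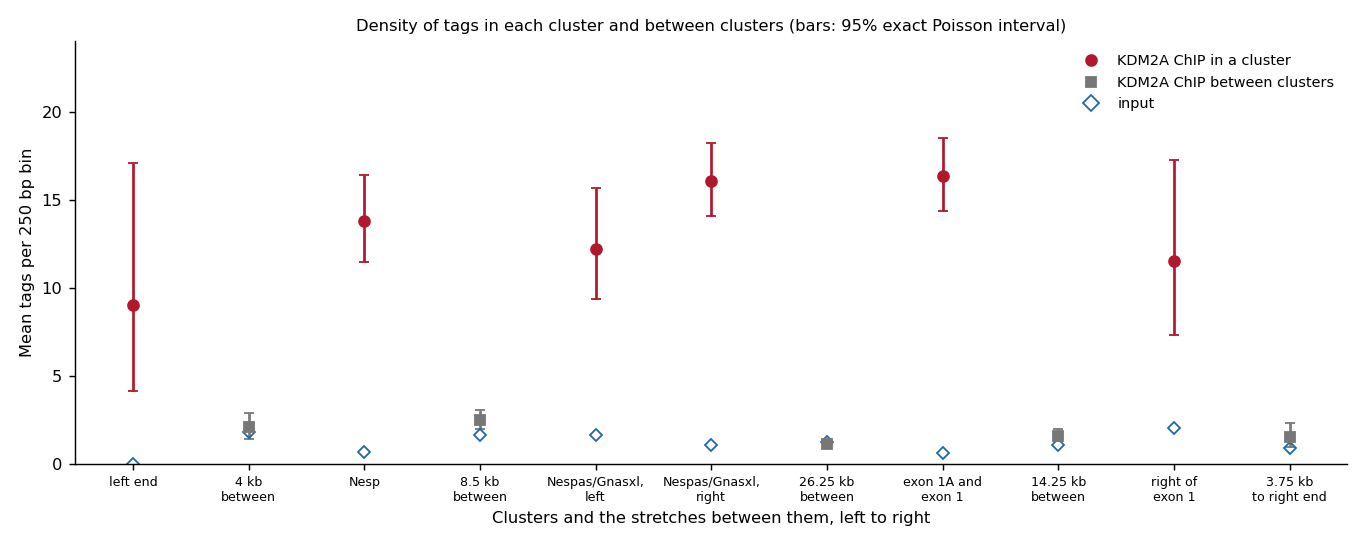
Mean tags per 250 bp bin in each cluster (circles) and in the stretches over 1 kb between them (squares), from left to right, with 95% exact Poisson intervals for KDM2A and diamonds for input. The clusters lie between 9.0 and 16.3 KDM2A tags per bin and the stretches between 1.11 and 2.47.

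Between the clusters KDM2A ranged from below scaled input to above it. The longest stretch, 26.25 kb from the right cluster at Nespas and Gnasxl to exon 1A, held 117 KDM2A tags and 127 input tags. Its ratio was 0.895 (exact interval 0.691 to 1.16), no bin had more than 5 KDM2A tags, and 41 of its 105 bins had 0. The 8.5 kb between Nesp and the left cluster at Nespas and Gnasxl held 84 KDM2A tags and 55 input tags, a ratio of 1.48 (1.04 to 2.13). The 14.25 kb right of exon 1 toward the short cluster held 90 and 61, a ratio of 1.43 (1.02 to 2.02). Around the 5 clusters of at least 15 tags, KDM2A tags per bin fell off quickly with distance. Only bins outside clusters were counted, which keeps the nearest values low. Within 0.5 kb of their edges there were 3.63 KDM2A tags per bin (95% exact Poisson interval 2.83 to 4.6), and at 0.5 to 1 kb 1.63 (1.06 to 2.38). At 1 to 2 kb there were 1.53 (1.13 to 2.02), at 2 to 4 kb 1.44 (1.16 to 1.77), and beyond that 1.33 (1.12 to 1.57). Input held 1.58, 0.438, 1.47, 1.33 and 1.28 tags per bin at the same distances. Relative to input, KDM2A therefore did not fall from the first distance to the second, where input rested on 7 tags.

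Taking all bins outside clusters, the KDM2A share of tags was 55.4% in the locus (95% Wilson interval 51.6% to 59.1%), 48.7% in the left flank (45.8% to 51.5%) and 51.6% in the right flank (48.6% to 54.6%). The odds of a KDM2A tag were 1.31 times those in the left flank (adjusted p = 0.0118, two-sided Fisher's exact test, 2 comparisons) and 1.16 times those in the right flank (adjusted p = 0.14, Fisher's exact test). When bins within 1 kb of a cluster were left out, an alternative chosen after the data were seen, the odds against the left flank were 1.18 (adjusted p = 0.273, Fisher's exact test), so that the difference did not pass the threshold away from the clusters.

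Against the genome, the larger clusters of the locus, from Nesp to exon 1, stood out in width and number of tags more than in height. The cluster right of exon 1 and the bin at the left end did not. Of all clusters of the genome, 51.1% were a single bin, so a cluster of several bins ranks as wide. Among the 43912 clusters of the genome, 0.711% were at least as wide as the 3.75 kb of the right cluster at Nespas and Gnasxl and of the cluster at exon 1A and exon 1. As many tags as in these 2 were held by 0.783% and 0.731%. At least their heights of 32 and 29 tags were reached by 6.54% and 9.01% of clusters. The Nesp cluster was among the highest 8.10% and the widest 4.07%. The left cluster at Nespas and Gnasxl and the cluster right of exon 1, both 15 tags high, were matched or passed in height by 36.4% of all clusters, whose median height was 12. In width they were matched or passed by 17.7% and 48.9% of clusters, and in number of tags by 19.0% and 43.1%. When the genome was divided into 35751 windows of 70 kb with tags in every 10 kb, 0.478% held at least the 703 KDM2A tags in clusters of the locus, and 1.27% began at least 5 clusters of 15 tags or more. No such cluster began in 74.4% of windows. These ranks are descriptions, with no test.

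**Figure D5:**
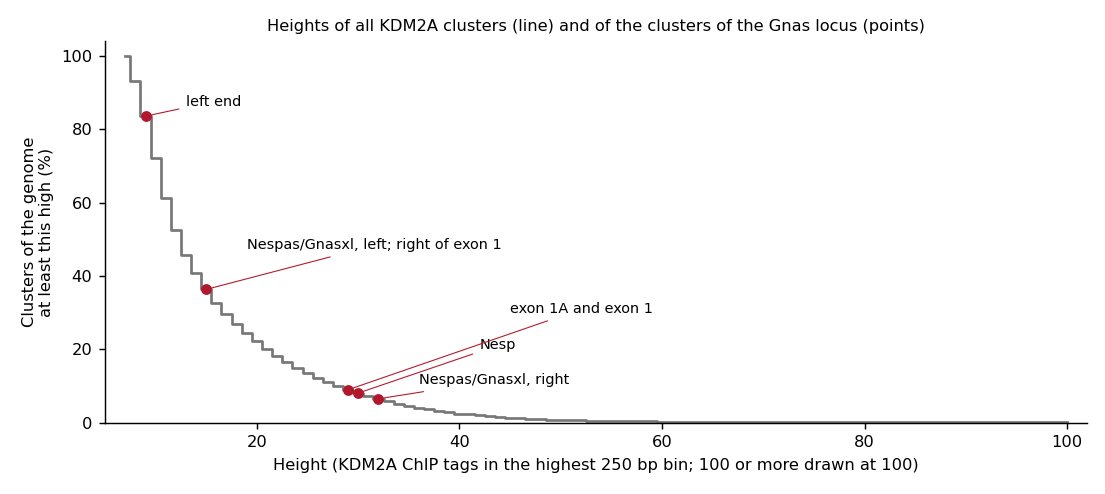
Share of the 43912 KDM2A clusters of the genome (vertical axis, %) that are at least as high as the value on the horizontal axis, in tags of the highest bin, with points for the 6 clusters of the locus. Heights of 29 to 32 tags lie in the highest 9.01%, whereas 9 tags at the left end are reached by 83.6%.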

How the data were processed

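The authors deposited raw tag counts, 1 row for every chromosome, strand and mm9 position with a tag. Bowtie is among the tools in the submitters' processing notes, and its version and settings are not given in the sources used here. Neither is whether positions start from 0 or 1, so coordinates, read as starting from 1, may be off by 1 bp. Each tag was moved 50 bp toward its 3' side and assigned to a 250 bp bin, and bins in any 10 kb with a tag were tested. To scale input, its tags were multiplied by 1.03, which is total KDM2A tags over total input tags. Tags beyond the first at a position and strand were 4.75% of KDM2A tags and 20.4% of input tags, and they entered this scale. With each position and strand counted once, the ratio was 15.8 at Nesp and 23.0 at exon 1A and exon 1. It was 7.85 and 12.9 in the left and right clusters at Nespas and Gnasxl, and 5.14 right of exon 1. Clusters were called over the whole genome, merging called bins within 500 bp, and printed for the locus. The calls were checked on simulated data with known clusters. Samples were grouped by the antibody in the labels. Tests were exact Poisson, exact binomial and Fisher's exact tests. The alternatives were counting each position and strand once, no movement of tags, 500 bp bins, bins shifted by a part of their width, an adjusted p limit of 0.0001, the genome mean alone, and input scaled by bins outside clusters. Leaving out bins within 1 kb of a cluster and comparing the densest 1 kb of each cluster were added after the data were seen. The locus and these tests were chosen with earlier results of these data known. Promoters were named by their order and clusters given by position, which was the rule for naming. No mm9 sequence or annotation was used, so CpG per bin was not counted. Python 3.11.15, numpy 2.4.6, pandas 2.3.3, scipy 1.17.1 and matplotlib 3.10.9 were used.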

Additional observations from a re-analysis of the deposited data

How the results depend on the processing

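No paired analysis was possible because there was only 1 KDM2A and 1 input library. The number of clusters in the locus, 6, stayed between 4 and 7 under the 7 other settings. Their share of KDM2A tags, 65.4%, was 60.6% when the adjusted p had to be under 0.0001 and 68.2% when the expected count was the genome mean alone, where the exchanged test gave 2 clusters in place of 0. The left and right clusters at Nespas and Gnasxl were joined with 500 bp bins, which are wider, and also with the genome mean alone. Their separation and the greatest width of a cluster therefore depend on the settings. With 500 bp bins the median height over the 5 higher clusters rose from 29 to 54 tags, with the joined cluster counted for both. The odds against the right flank, 1.16, passed the threshold at 1.23 without movement of tags (adjusted p = 0.0348, Fisher's exact test) and at 1.26 with the limit of 0.0001 (adjusted p = 0.0165). The odds against the left flank were 1.18 without bins within 1 kb of a cluster. The cause was not tested.

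Pairs that differed in density were 0 of 10 and became 1 of 3 with each position and strand counted once, 4 of 10 without movement of tags, 3 of 6 with 500 bp bins, 3 of 6 with shifted bins, and 2 of 10 at the limit of 0.0001. Over the densest 1 kb the count was 8 of 10, but those spans were picked for the tags compared, so their p-values do not hold and nothing is drawn from that count. Pairs that differed in KDM2A share were 0 of 10 and became 3 of 6 with 500 bp bins and 3 of 6 with shifted bins. Clusters begin, end and merge differently under these settings. Of 73 heights and ratios of single clusters under the alternatives, 69 stayed within their interval and 4 did not. Many of these values had to agree, because the limit, the expected count and the scale do not change the tags of a bin. Heights with 500 bp bins were set against intervals for 250 bp bins. The count is therefore a description and does not measure how firm the values are. At this depth the cluster right of exon 1 and the bin at the left end rest on 23 and 9 tags.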

Other observations

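The flanks held 5 clusters, each of 1 or 2 bins, all but 1 on the right. In the order of genes in GRCm38.p6, Gm30189, Nelfcd and Ctsz follow Gnas on the right, and the clusters were not tied to them. The highest, a single bin from 174264251 to 174264500, held 20 KDM2A tags and 3 input tags. The cluster from 174241251 to 174241750 held 26 and 1, that from 174251751 to 174252250 held 23 and 3, and the bin from 174268251 to 174268500 held 7 and 0. The cluster from 174251751 lost 30.4% of its tags with each position and strand counted once, against 17.4% or less in the clusters of the locus, and was then not called. In the left flank 1 bin, from 174089501 to 174089750, was called with 9 KDM2A tags and 1 input tag.

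With the libraries exchanged, a bin in the right flank, from 174222751 to 174223000, held 17 input tags and 2 KDM2A tags (adjusted p = 4.21e-11, exact Poisson test). It kept 11 input tags and 2 KDM2A tags with each position and strand counted once and was called again. The other exchanged call, in the left flank from 174077251 to 174077500, fell from 8 input tags to 5 and was not called.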
